A study of Homo sapiens with 8 samples.

Results

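Nonsense-mediated decay (NMD) is the surveillance pathway that destroys messages in which the ribosome stops at a premature termination codon. The 9 genes described here encode its core machinery and were taken by gene symbol: UPF1, UPF2, UPF3A, UPF3B, SMG1, SMG5, SMG6, SMG8 and SMG9. They were 9 of the 60675 gene rows counted in each library, and all 9 were among the 16661 genes with enough reads to be tested. The symbols were matched through the Ensembl identifiers of the count tables, and the rule itself uses no measured value.

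In NMD, a ribosome that terminates upstream of an exon junction complex, the protein mark left on messages by splicing, recruits the helicase UPF1. UPF2 and the paralogs UPF3A and UPF3B connect UPF1 with that complex. The kinase SMG1, held in check by its partners SMG8 and SMG9, phosphorylates UPF1, and phosphorylated UPF1 is bound by the endonuclease SMG6 and by SMG5, which leads to decapping and deadenylation. The messages of several of these factors are themselves known NMD targets, which forms a feedback loop. Aberrant splicing is a common source of premature termination codons, and indisulam, a drug that brings RBM39, a protein needed for splicing, to the ubiquitin ligase DCAF15 for degradation, is known to cause splicing errors.

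The libraries came from the human pancreatic cancer line Panc10.05, long established in culture, and from a derivative that became resistant while the indisulam concentration was raised. The groups were parental untreated, parental indisulam (2 µM for 18 h), resistant untreated (a drug holiday of a week) and resistant indisulam (2 µM without interruption), with 2 libraries each, 8 in all. The resistant cells are a single derivative line, so its differences from the parental line cannot be told apart from those of any other long-cultured population. Libraries of the same group are technical replicates in the study's words, so the p-values measure the spread between these libraries. Treatment notes in the labels name A549, a lung cancer line, whereas Panc10.05 stands in the titles and as the named cell line, and the titles were followed. The ductal markers KRT7, KRT8, KRT18, KRT19, EPCAM, CDH1 and MUC1 were present in every library, at 3.95 to 4840 CPM (read counts scaled to a common library total), and their summed level was 6322 to 6513 CPM in parental and 10815 to 12244 CPM in resistant libraries. Of 6 lung epithelial markers, NKX2-1, SFTPA1, SFTPA2 and SFTPB had 0 reads in all 8 libraries, SFTPC had at most 1 and NAPSA 2 to 21, and their sum was 0.0258 to 0.198 CPM. Of 6 fibroblast markers, DCN and LUM had 0 reads, while COL1A1 had 99 to 374, and their sum was 1.35 to 1.9 CPM in the first 3 groups and 3.97 to 4.03 CPM in resistant indisulam. Of 4 leukocyte markers, PTPRC and CD3E had 0 reads, CD68 had 1 to 14 and CD14 6 to 28, and their sum was 0.237 to 0.292 CPM in the first 3 groups and 0.385 to 0.445 CPM in resistant indisulam. The part of these markers in the results was not tested. Between 65266253 and 108002436 reads were assigned to genes per library, and each NMD factor had 1551 to 27316 reads per library. Counting error and the spread between libraries both enter the standard errors, and their parts were not separated. In bulk RNA, fewer cells expressing a gene and less RNA per cell cannot be told apart.

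The 9 genes lie on 7 chromosomes. In GRCh38 with the GENCODE 44 annotation, UPF1 spans chr19:18831959-18868230 on the plus strand, UPF2 chr10:11920022-12043170 on the minus strand, UPF3A chr13:114281601-114305817 on the plus strand and UPF3B chrX:119834022-119852998 on the minus strand. SMG1 spans chr16:18804860-18926408 on the minus strand, SMG5 chr1:156249224-156282825 on the minus strand, SMG6 chr17:2059839-2303785 on the minus strand, SMG8 chr17:59209400-59215239 on the plus strand and SMG9 chr19:43727983-43754962 on the minus strand. Their canonical transcripts differ widely in build. SMG1 has 63 exons and is 16062 bases long, whereas SMG8 has 4 exons and 3221 bases.

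Features that make a message an NMD target were examined in the canonical transcripts, because several of the 9 messages are known targets. A long 3′ UTR is such a feature, and 6 of the 9 transcripts had a 3′ UTR longer than the median of 1023.5 bases over 19598 coding genes. The longest were those of SMG1 (4709 bases) and SMG9 (3613 bases), and the shortest was that of SMG8 (228 bases). An ATG in the 5′ UTR was present in 4 of 9 (UPF2, SMG1, SMG5 and SMG9), against 41.8% of all coding genes. An exon junction more than 50 bases past the stop codon, the classical trigger, was present in 0 of 9, against 0.388% of all. A transcript annotated as an NMD substrate was listed for 4 of 9 genes (UPF1, SMG1, SMG8 and SMG9), against 38.3% of all coding genes. A median splits all coding genes evenly, so 6 of 9 above it was a small excess. The other shares were near those of all genes. Counts per gene do not separate such transcripts, and none was measured on its own here.

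The promoters of 8 of the 9 genes, all but SMG8, could be read from RefSeq (GRCh38.p14). The 250 bases before the start site are shown for UPF2 and UPF3B, whose messages rose in treated parental cells, and for UPF3A, whose message fell there while its paralog rose. Capitals mark matches, on either strand, to the ETS core CCGGAA, the GC box GGGCGG, the E-box CACGTG, the CCAAT box CCAAT and the CRE core TGACG, each written 5′ to 3′ on the strand of the gene. Neighbouring matches of the same motif may share bases, as in UPF2.
UPF2 (chr10:12043171-12043420, minus strand): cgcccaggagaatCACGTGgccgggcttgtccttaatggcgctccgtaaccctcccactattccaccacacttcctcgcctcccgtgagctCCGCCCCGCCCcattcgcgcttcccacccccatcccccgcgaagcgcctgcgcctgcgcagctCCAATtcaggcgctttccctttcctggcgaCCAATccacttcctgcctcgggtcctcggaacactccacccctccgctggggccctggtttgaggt
UPF3B (chrX:119852964-119853213, minus strand): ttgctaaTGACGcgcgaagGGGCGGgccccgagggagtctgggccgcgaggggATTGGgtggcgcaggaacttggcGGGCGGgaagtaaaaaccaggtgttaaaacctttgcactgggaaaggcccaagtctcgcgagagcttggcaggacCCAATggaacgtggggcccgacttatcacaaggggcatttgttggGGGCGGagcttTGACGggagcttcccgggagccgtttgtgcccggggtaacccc
UPF3A (chr13:114281351-114281600, plus strand): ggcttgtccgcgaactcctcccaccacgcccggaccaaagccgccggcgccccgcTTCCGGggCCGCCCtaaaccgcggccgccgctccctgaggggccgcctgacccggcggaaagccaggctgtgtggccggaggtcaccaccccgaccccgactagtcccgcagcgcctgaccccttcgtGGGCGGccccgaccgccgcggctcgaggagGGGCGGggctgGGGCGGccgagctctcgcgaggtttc
The UPF2 window held 2 GC boxes, 2 CCAAT boxes and an E-box, and the UPF3B window held 3 GC boxes, 2 CCAAT boxes and 2 CRE cores. The UPF3A window held 4 GC boxes and an ETS core, and neither CCAAT box nor CRE core. Over the 8 promoters, a GC box was found in 6, a CCAAT box in 4, an ETS core in 3, a CRE core in 2 and an E-box in 1. The shares over 35116 promoters were 42.6% for the GC box, 32% for the CCAAT box, 14.5% for the ETS core, 21.2% for the CRE core and 6.34% for the E-box. These are matches of letters, and binding was not measured.

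Per length, the SMG5 message was the most abundant of the 9. Its level averaged over the 8 libraries was 46.9 CPM per kilobase of exon, followed by UPF1 (27.8), UPF2 (19.7), SMG8 (12.6), SMG9 (11.7), UPF3B (11.2), SMG1 (5.92), UPF3A (5.22) and SMG6 (2.52). The 2 UPF1-binding effectors SMG5 and SMG6 thus stood at opposite ends of the order. The exon lengths come from all annotated exons of a gene. For SMG1 (25161 bases), SMG6 (10568 bases), UPF1 (8934 bases) and UPF3A (5755 bases) they are far longer than the canonical transcript and lower the values. The canonical transcripts of UPF3A (2370 bases) and UPF3B (2343 bases) are nearly equal in length, so the order of these paralogs depends on the length used.

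**Figure D1:**
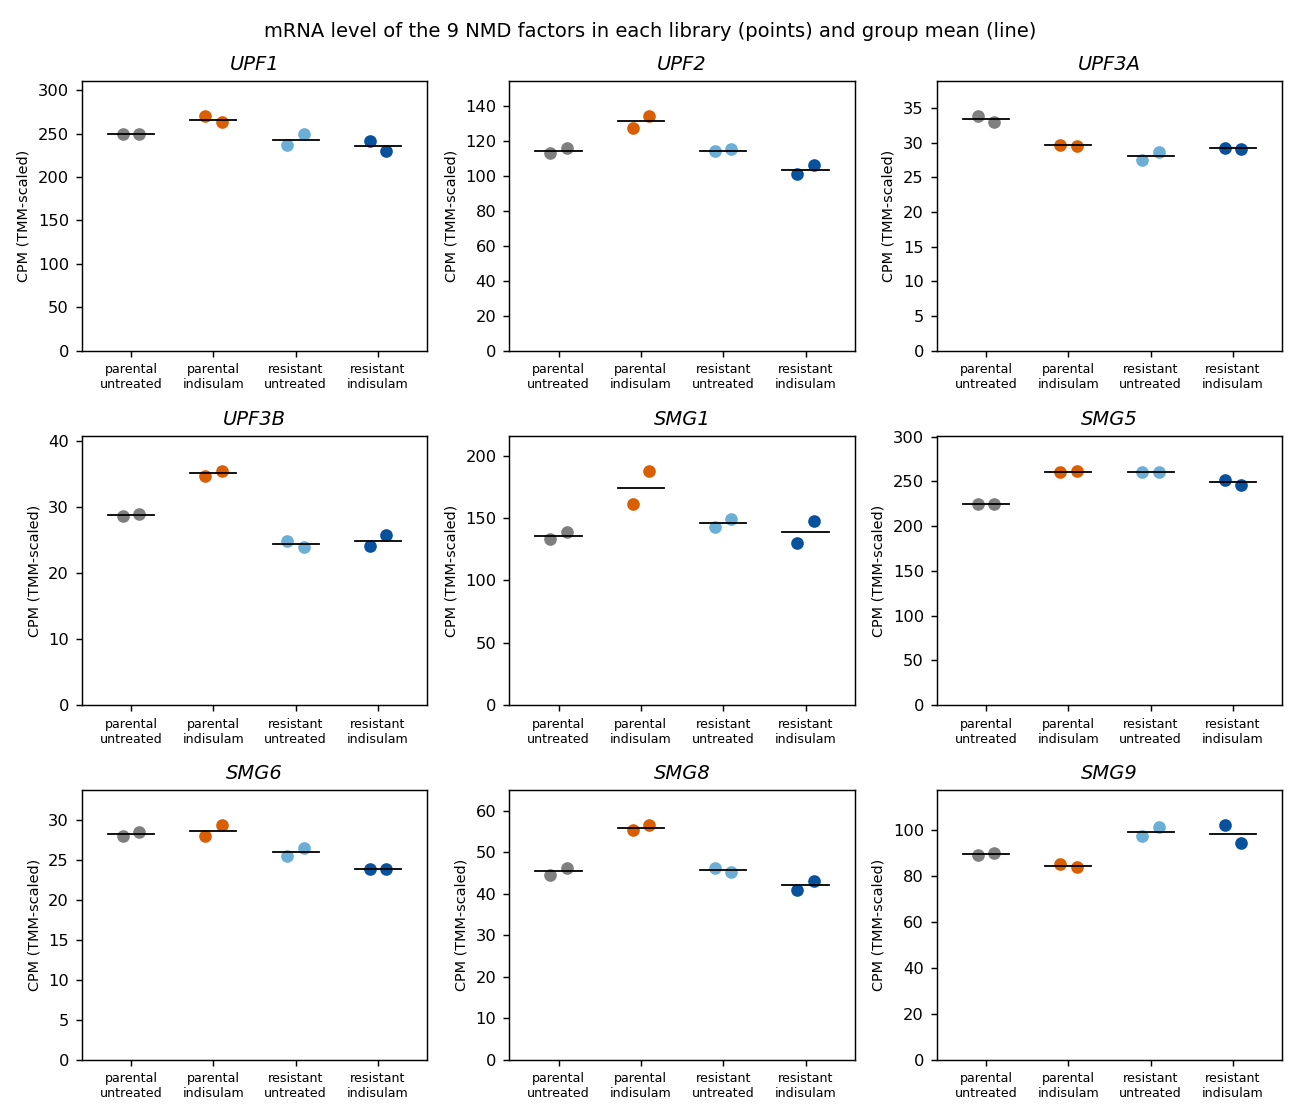
TMM-scaled CPM (y axis, from 0) of the 9 NMD factors in the 8 libraries, 2 points per group, with the group mean as a line. In UPF1, UPF2, UPF3B, SMG1 and SMG8 the parental indisulam libraries lie above all 6 others, and in SMG9 they lie below all 6 others. The share of all tested genes with such separation was not computed.

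Treatment of parental cells asks how the NMD machinery responds when RBM39 is lost for the first time. Of the 9 factors, 6 rose (SMG1, SMG8, UPF3B, SMG5, UPF2 and UPF1), 2 fell (UPF3A and SMG9) and SMG6 passed the test in neither direction (edgeR quasi-likelihood test, Benjamini-Hochberg adjusted p under 0.05 over all tested genes). Over all 16661 genes, 58.2% passed, with 31.6% higher and 26.6% lower. The split of called genes, 5259 higher and 4431 lower, turned to 3900 and 5385 when library totals alone set the scale, with 4 of the factors then higher and 2 lower. It also turned, to 3977 and 4129 of 12066 genes, when only genes with a mean of at least 1 CPM were tested. The median log2 fold change was 0.19 over the 9 factors and 0.01 over all genes. The changes were small, and SMG8, UPF3B and SMG1 rose by 23.2%, 21.8% and 28.1%. With edgeR's test against a minimum log2 change of 0.25, 0 of the 9 passed, and 1 passed at an unadjusted p under 0.05.

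SMG8, a regulatory partner of the SMG1 kinase, measured 44.6 and 46.2 CPM in untreated and 55.4 and 56.5 CPM in treated parental libraries. The groups did not overlap, and the log2 fold change was 0.30 (SE 0.0346, adjusted p = 1e-07). UPF3B, the main link between UPF2 and the exon junction complex, went from 28.6 and 29 CPM to 34.7 and 35.5 CPM (0.28, SE 0.0386, adjusted p = 1.2e-06). UPF2, the adaptor between UPF1 and UPF3B, went from 113 and 116 CPM to 127 and 134 CPM (0.19, SE 0.032, adjusted p = 1.7e-05). In these 3 genes, both treated libraries were above both untreated libraries, and the share of all tested genes with such separation was not computed.

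SMG5, the adaptor of phosphorylated UPF1, measured 225 CPM in both untreated libraries and 260 and 262 CPM in the treated libraries (log2 fold change 0.21, SE 0.0268, adjusted p = 3.6e-07). UPF1 itself measured 250 and 249 CPM untreated and 270 and 263 CPM treated (0.10, SE 0.0307, adjusted p = 0.011). Both genes have GC-rich transcripts, and the value of UPF1 depended on scaling, being 0.03 with library totals alone. SMG6, which cuts the message near the stop codon, measured 27.9 and 28.5 CPM untreated and 27.9 and 29.3 CPM treated, with overlapping groups (0.02, SE 0.0391, adjusted p = 0.65).

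SMG1 had the fold change with the largest standard error. Its level was 133 and 139 CPM in untreated libraries, and 161 and 188 CPM in treated libraries (log2 fold change 0.36, SE 0.101, adjusted p = 0.037). Replicate 2 exceeded replicate 1 by 0.23 on the log2 scale in the parental indisulam group and by 0.18 in the resistant indisulam group. Over the 547 tested genes with transcripts above 10000 bases, the median difference between these replicates was 0.04 and 0.05, against 0.00 over all genes, and the part of transcript length in the SMG1 spread was not tested. The call was lost without either parental untreated library (log2 fold change 0.33 and 0.39) and without either resistant untreated library (0.34 for each). It was also lost with library totals alone (adjusted p = 0.064), with only the groups compared (adjusted p = 0.069) and without a filter (adjusted p = 0.11). The value was 0.22 (adjusted p = 0.012) without parental indisulam replicate 2 and 0.45, still called, without replicate 1.

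UPF3A, the paralog of UPF3B with weaker decay activity, moved opposite to it. It fell from 33.8 and 33 CPM to 29.7 and 29.5 CPM (log2 fold change -0.17, SE 0.0367, adjusted p = 0.00028). SMG9, the second partner of SMG1, measured 88.9 and 89.7 CPM untreated and 85 and 83.6 CPM treated (-0.08, SE 0.0343, adjusted p = 0.045). Without either parental untreated library, 5 of the 9 factors were called in place of 8, and the calls of UPF1, SMG1 and SMG9 were lost. The SMG9 call was also lost without parental indisulam replicate 2 (adjusted p = 0.072), and the UPF1 call without parental indisulam replicate 1 (adjusted p = 0.2). UPF2, UPF3A, UPF3B, SMG5 and SMG8 kept their calls under each of the 18 alternatives that did not set a minimum effect.

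**Figure D2:**
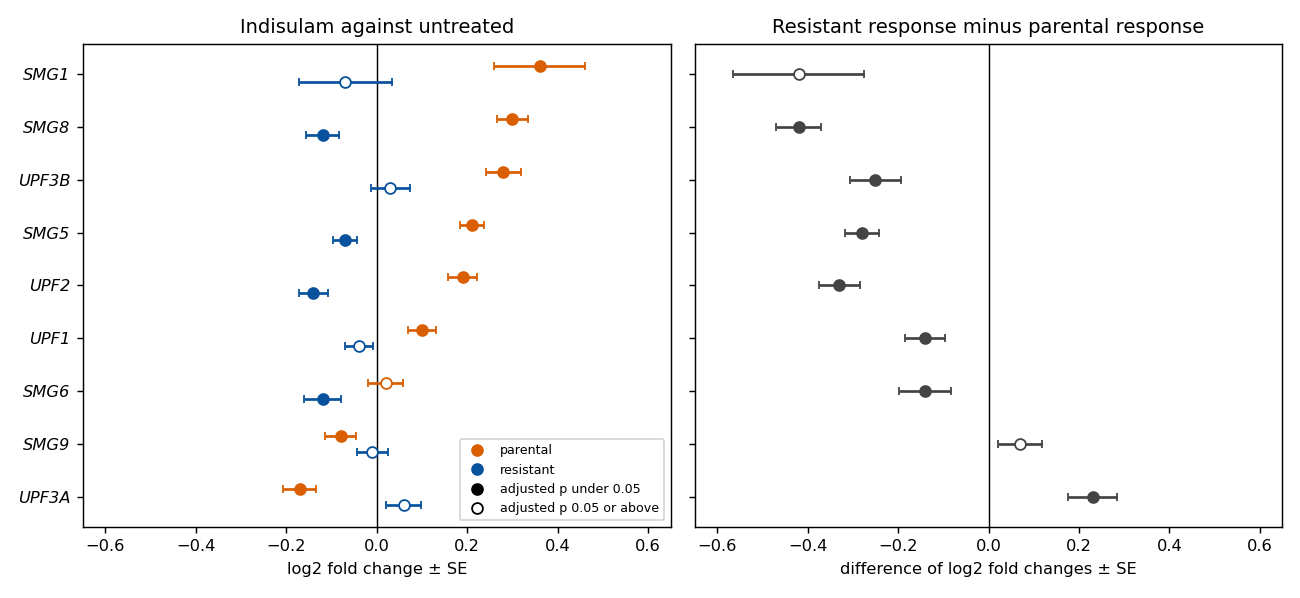
Left, log2 fold change of indisulam against untreated libraries (x axis, ± SE) for each NMD factor in parental (orange) and resistant (blue) cells. Right, the resistant response minus the parental response (± SE). Filled points passed the adjusted p of 0.05. In parental cells 6 factors rose and 2 fell, in resistant cells 4 fell, and the difference was negative and called for 6 factors and positive and called for UPF3A.

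The same comparison in resistant cells asks how continuous exposure differs from a drug holiday in cells that proliferate on the drug. Of the 9 factors, 4 fell (UPF2, SMG6, SMG8 and SMG5), 5 did not pass the test and 0 rose with edgeR, adjusted or unadjusted, or with DESeq2, by which 3 fell. Over all tested genes, 50.7% passed, with 24.9% higher and 25.8% lower. The split of 4149 higher and 4297 lower genes turned to 5095 and 3438 with library totals alone, and 1 factor (UPF3A) was then higher and 1 (UPF2) lower. With a mean of at least 1 CPM required, the split was 3856 higher and 3603 lower. The median log2 fold change of the 9 factors was -0.07, against 0.01 over all genes. All 4 falls were under 10%, and with a minimum log2 change of 0.25 edgeR called 0 factors, adjusted or unadjusted.

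UPF2 measured 114 and 115 CPM off the drug and 101 and 106 CPM on it (log2 fold change -0.14, SE 0.0329, adjusted p = 0.00094). It was the factor whose call held under all 18 alternatives without a minimum effect. SMG6 measured 25.4 and 26.5 CPM off the drug and 23.8 CPM in both libraries on it (-0.12, SE 0.0419, adjusted p = 0.018). SMG8 measured 46.2 and 45.3 CPM, then 41 and 43.1 CPM (-0.12, SE 0.0365, adjusted p = 0.0089), and SMG5 measured 261 and 260 CPM, then 252 and 246 CPM (-0.07, SE 0.027, adjusted p = 0.038). In each of the 4 genes the groups did not overlap, and the share of all tested genes without overlap was not computed.

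The remaining 5 factors overlapped or nearly touched between the resistant groups. UPF1 measured 237 and 250 CPM off and 242 and 230 CPM on the drug, and SMG9 97.1 and 101 CPM off and 102 and 94.3 CPM on. SMG1 measured 143 and 149 CPM off and 130 and 148 CPM on. The UPF3 paralogs were 24.8 and 23.9 CPM off and 24.1 and 25.7 CPM on for UPF3B, and 27.5 and 28.6 CPM off and 29.2 and 29.1 CPM on for UPF3A. Their log2 fold changes ran from -0.07 (SMG1) to 0.06 (UPF3A), with adjusted p from 0.23 to 0.76.

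These resistant-cell calls were less stable than those in parental cells. Only 2 of the 9 factors were called without resistant untreated replicate 1, without resistant indisulam replicate 1 or without resistant indisulam replicate 2. The SMG8 call was lost without resistant indisulam replicate 1 and resistant untreated replicate 1 (adjusted p = 0.096 and 0.07), and the SMG6 call without either resistant indisulam library or resistant untreated replicate 2 (0.052 to 0.1). The SMG5 call was lost when any library other than resistant indisulam replicate 1 or resistant untreated replicate 2 was left out (0.05 to 0.22).

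Whether the responses of the lines differed was tested as an interaction, the resistant response minus the parental response. It was negative for 6 of the 9 factors (SMG8, UPF2, SMG5, UPF3B, SMG6 and UPF1), positive for UPF3A, and not called for SMG1 and SMG9. Over all tested genes, 50.1% were called, with 22.7% positive and 27.5% negative. The median difference of the 9 factors was -0.25, against 0.01 over all genes. With library totals alone, the median of all genes moved by 0.115, the split of all called genes turned from 3774 positive and 4577 negative to 5329 and 2770, and the factors called became 2 positive and 3 negative. With a mean of at least 1 CPM required, the shift was 0.085 and the split 3821 positive and 3235 negative.

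The difference for SMG8 was -0.42 (SE 0.0503, adjusted p = 3.9e-07), the only one that passed a minimum of 0.25. Its untreated levels were alike in the lines, 44.6 and 46.2 CPM in parental and 46.2 and 45.3 CPM in resistant libraries, and its treated levels lay on either side of them. UPF2 showed the same order, with a difference of -0.33 (SE 0.0459, adjusted p = 2.5e-06). For SMG5 the difference was -0.28 (SE 0.038, adjusted p = 1.8e-06) and for UPF3B -0.25 (SE 0.0574, adjusted p = 9e-04). UPF3A differed by 0.23 (SE 0.0535, adjusted p = 0.00093). SMG8, UPF2, SMG5 and UPF3A kept these calls under all 17 alternatives that did not set a minimum effect, while UPF3B lost its call with library totals alone (adjusted p = 0.058).

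The differences for UPF1 (-0.14, SE 0.0437, adjusted p = 0.012) and SMG6 (-0.14, SE 0.0573, adjusted p = 0.04) were weaker. With library totals alone they were -0.02 for UPF1 and -0.03 for SMG6 (adjusted p = 0.7 for each). With a mean of at least 1 CPM required, the differences were -0.05 (adjusted p = 0.33) and -0.06 (adjusted p = 0.38). That of UPF1 was lost without parental indisulam replicate 1, resistant indisulam replicate 2 or resistant untreated replicate 2 (adjusted p = 0.085 to 0.18). That of SMG6 was lost without any library except parental indisulam replicate 1 (0.051 to 0.29). SMG1 had a difference of -0.42 (SE 0.145, adjusted p = 0.072), which was called without either parental indisulam library or without resistant indisulam replicate 2 (adjusted p = 0.00016, 0.013 and 0.042). SMG9 (0.07, SE 0.0487, adjusted p = 0.26) was called only without resistant indisulam replicate 2 among the libraries (0.14, adjusted p = 0.019).

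Off the drug, the resistant line differed from the parental line in 5 of the 9 factors. SMG5 and SMG9 were higher in resistant cells, UPF3A, UPF3B and SMG6 were lower, and UPF1, UPF2, SMG1 and SMG8 did not pass. Over all genes, 60.1% passed, with 30.3% higher and 29.9% lower. SMG5 measured 225 CPM in both parental and 261 and 260 CPM in resistant libraries (log2 difference 0.21, SE 0.0268, adjusted p = 2.5e-07). With this scaling, that was the level of parental cells on the drug. Both UPF3 paralogs were lower, UPF3A by -0.25 (SE 0.0374, adjusted p = 3e-06) and UPF3B by -0.24 (SE 0.0407, adjusted p = 1.8e-05) on the log2 scale. SMG9 was higher by 0.15 (SE 0.0342, adjusted p = 0.00065) and SMG6 lower by -0.12 (SE 0.04, adjusted p = 0.012). The SMG6 call was lost without parental untreated replicate 2 or resistant untreated replicate 1 (0.11 and 0.13), and the SMG9 difference was 0.05 (adjusted p = 0.091) once GC content and transcript length were corrected for. That correction also made UPF1 lower in resistant cells (-0.12, adjusted p = 7.1e-06), moved SMG6 to -0.22 (adjusted p = 8.3e-06) and SMG5 to 0.12 (adjusted p = 2.8e-05). Parental cells on the drug were then at 0.31 for SMG5 against parental untreated cells, so the corrected levels were no longer alike. Their difference was not tested. All 7 ductal markers were higher in resistant than in parental untreated cells, with a median of 0.74.

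On the drug, resistant cells had lower messages of 7 factors than parental cells, a higher message of SMG9 and no called difference for UPF3A. Over all genes, 69.5% passed, with 34.6% higher and 34.9% lower. The split of 5761 higher and 5818 lower genes turned to 6835 and 4619 with library totals alone, and 1 factor was then higher and 5 lower. With a mean of at least 1 CPM required, it was 4989 higher and 4469 lower. The median of the 9 factors was -0.27 against 0.00 over all genes. UPF3B was lower by -0.49 on the log2 scale (SE 0.0403, adjusted p = 1.4e-10), SMG8 by -0.41 (SE 0.0356, adjusted p = 4.1e-10) and UPF2 by -0.34 (SE 0.0325, adjusted p = 2.4e-09). These 3 passed a minimum of 0.25. SMG6 was lower by -0.27 (SE 0.041, adjusted p = 4.1e-06) and UPF1 by -0.17 (SE 0.0309, adjusted p = 2.9e-05), and SMG9 was higher by 0.22 (SE 0.0347, adjusted p = 7.4e-06). The calls of SMG1 (-0.33, SE 0.102, adjusted p = 0.043) and SMG5 (-0.07, SE 0.0269, adjusted p = 0.027) were not stable. That of SMG1 was lost without either untreated library of either line or without resistant indisulam replicate 1 (0.072 to 0.1), and that of SMG5 without any library except resistant indisulam replicate 1 (0.053 to 0.38). SMG5 turned to 0.02 with library totals alone, and was -0.24 (adjusted p = 3.5e-10) once GC content and length were corrected for. That correction moved UPF1 to -0.40 (adjusted p = 3.8e-15) and SMG9 to 0.09 (adjusted p = 0.0032). Of the 7 ductal markers, 6 were higher and EPCAM was lower in resistant cells on the drug, with a median of 0.97.

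Resistant cells on the drug were also set against parental untreated cells, which gives the net state of the adapted line. UPF3A (-0.19), UPF3B (-0.21), SMG6 (-0.24), UPF2 (-0.14), SMG8 (-0.11) and UPF1 (-0.08) were lower, SMG5 (0.15) and SMG9 (0.13) were higher, and SMG1 (0.03, adjusted p = 0.81) did not pass. Over all genes, 64.8% passed, with 32.2% higher and 32.6% lower. The adjusted p-values of the 8 called factors ran from 1e-05 (SMG6) to 0.031 (UPF1). The UPF1 call was lost without either parental untreated library or resistant indisulam replicate 2, the SMG8 call without parental untreated replicate 2 or resistant indisulam replicate 1, and the SMG9 call without resistant indisulam replicate 1 (0.061 to 0.19). Once corrected for GC content and length, UPF1 was at -0.18 (adjusted p = 1.8e-08), SMG5 at 0.07 (adjusted p = 0.0095) and SMG9 at 0.06 (adjusted p = 0.05, no longer called). This comparison shares its libraries with the others and is no separate evidence.

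Over the 8 libraries, the levels of the factors fell into patterns. Of the 36 pairs, 9 had a Pearson correlation of log2 CPM above 0.8, all among UPF1, UPF2, UPF3B, SMG1, SMG6 and SMG8, and the highest was that of UPF2 with SMG8 (0.97). UPF3B and SMG9 ran opposite to each other (-0.96), as did UPF3A and SMG5 (-0.91). Among 8786 genes with a mean of at least 10 CPM, the gene most like SMG8 was ZZZ3 (0.997), that most like UPF3B was MFF (0.997), SMG5 RNF114 (0.994), UPF2 GTF3C3 (0.992), UPF3A ABCA7 (0.990), SMG6 FRAS1 (0.989), SMG9 CHMP6 (0.981), SMG1 BIRC6 (0.976) and UPF1 ZNRD2 (0.963). With 4 group means behind 8 libraries, such values are common, and 594 genes exceeded 0.95 with UPF3B and 10 with SMG1. The correlations describe shared libraries, and no test was made on them.

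The genes around the 9 factors in the pathway were examined by role. Over all tested genes, 31.6% rose and 26.6% fell in parental cells, and 24.9% rose and 25.8% fell in resistant cells. For the interaction, 22.7% were positive and 27.5% negative. The counts of each list below stand beside these shares. All 7 genes of the exon junction complex list rose in parental cells (median 0.19), and 3 rose in resistant cells (median -0.01), where 0 fell with edgeR or DESeq2 and 1 at an unadjusted p under 0.05. MAGOH, a core subunit of the complex, rose by 0.25 (SE 0.0311, adjusted p = 3e-07) in parental cells, PYM1, which disassembles the complex, by 0.20, and EIF4A3, its RNA-clamping helicase, by 0.19. In resistant cells PYM1 (0.24), CASC3 (0.18) and RNPS1 (0.07) rose. The interaction was negative for 4 of the 7, EIF4A3, MAGOH, MAGOHB and RBM8A, from -0.15 to -0.33. With a minimum effect of 0.25, edgeR called 0 of the 7 in either line, adjusted or unadjusted.

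Among 6 further NMD factors, 3 rose and 3 fell in parental cells (median -0.01), and 5 fell in resistant cells (median -0.19), where 0 rose with edgeR or DESeq2 and 1 at an unadjusted p under 0.05 with edgeR. The interaction was negative for 3 of the 6 and positive for DHX34. PNRC2, which links UPF1 to decapping, rose in parental cells by 0.30, RUVBL1, an ATPase that regulates SMG1, by 0.29, and NBAS by 0.17, while the helicase DHX34 (-0.35), the helicase MOV10 (-0.29) and RUVBL2 (-0.19) fell. The paired ATPases RUVBL1 and RUVBL2 thus moved in opposite directions. In resistant cells MOV10 (-0.25), NBAS (-0.21), RUVBL2 (-0.21), RUVBL1 (-0.18) and DHX34 (-0.18) fell.

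Of the translation termination and cap-binding genes, 6 of 7 were tested, since GSPT2 had 0 reads. In parental cells 3 rose, namely NCBP2 (0.36), GSPT1 (0.24) and ETF1 (0.23), the latter both encoding release factors, and NCBP1 fell (-0.35). In resistant cells EIF4G1 (0.10) and GSPT1 (0.08) rose, and NCBP1 (-0.48), PABPC1 (-0.14) and NCBP2 (-0.09) fell. The nuclear cap-binding subunits NCBP1 and NCBP2 moved oppositely in parental cells. Without resistant indisulam replicate 1, 3 of the 5 calls in resistant cells were left. Of the decay enzymes, 10 of 11 were tested, of which 6 rose and 2 fell in parental and 4 rose and 5 fell in resistant cells. XRN1, the cytoplasmic 5′ to 3′ exonuclease, rose in both lines, by 0.42 (SE 0.0505, adjusted p = 4.7e-06) and 0.54 (SE 0.0528, adjusted p = 6.6e-07). Its nuclear counterpart XRN2 rose by 0.23 in parental and fell by 0.25 in resistant cells. CNOT7 (0.38) and DCP1A (0.29) also rose and EDC4 (-0.24) and EXOSC10 (-0.09) fell in parental cells, while in resistant cells DCP2 (0.20) and EDC4 (0.11) rose and DIS3 (-0.23) and PARN (-0.22) fell.

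Messages known from other systems as NMD targets moved in both directions. Of 23, 10 rose and 6 fell in parental cells (median 0.05), and 10 rose and 5 fell in resistant cells (median 0.06). The shares of all tested genes were 31.6% and 26.6% in parental cells, and 24.9% and 25.8% in resistant cells. Between the lines, 30.3% of all tested genes were higher and 29.9% lower in resistant cells off the drug, and 34.6% and 34.9% on it. Of the 23, 5 were higher and 14 lower off the drug (median -0.17, all genes -0.02). On it, 6 were higher and 14 lower (median -0.13, all genes 0.00). The largest rises in parental cells were in HNRNPL (0.53), TBL2 (0.41) and SRSF3 (0.40), and the largest falls in SNHG12 (-0.68), SRSF6 (-0.26) and UPP1 (-0.22). In resistant cells ATF3 (1.18), DDIT3 (0.40) and GADD45B (0.37), stress-induced genes, rose most, and RPL3 (-0.42), RPL12 (-0.28) and UPP1 (-0.24) fell most. These gene totals mix productive and NMD-sensitive transcripts, so they do not measure the activity of the pathway.

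**Figure D3:**
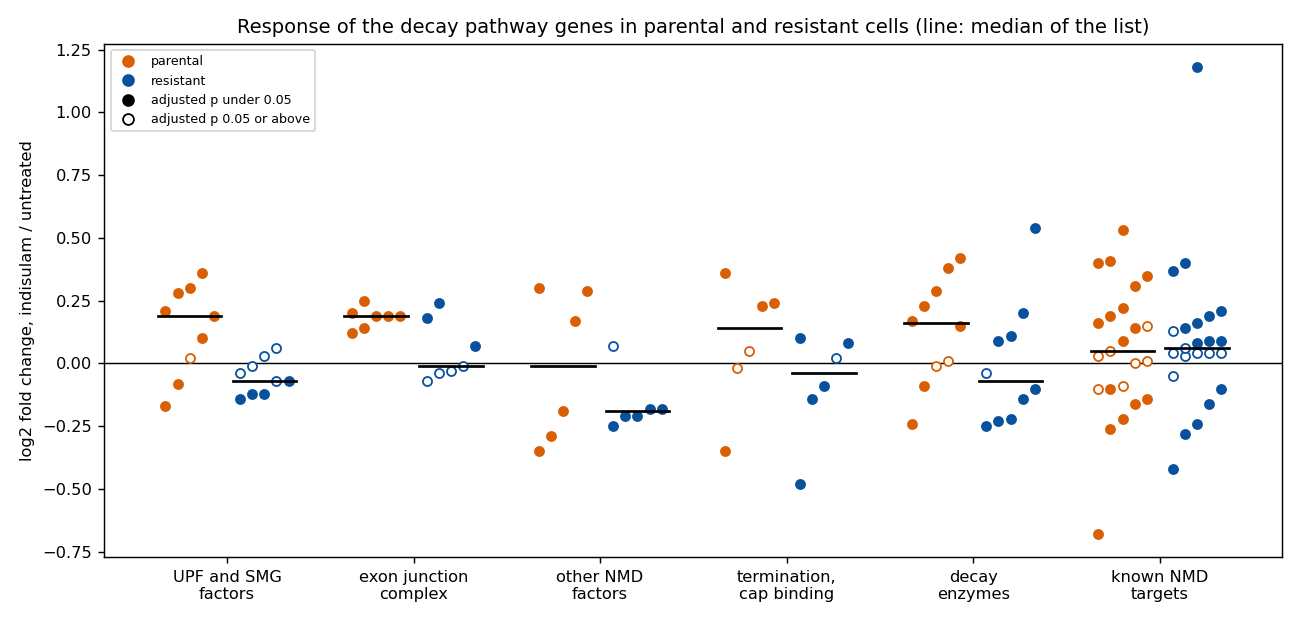
Log2 fold change of indisulam against untreated libraries (y axis) for each tested gene of 6 lists, in parental (orange) and resistant (blue) cells. Filled points passed the adjusted p of 0.05 and lines are list medians, which in parental and resistant cells were 0.19 and -0.07 for the UPF and SMG factors, 0.19 and -0.01 for the exon junction complex list, and 0.05 and 0.06 for known targets.

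SMG1 and UPF3A have near-identical copies elsewhere in the genome that could share their reads. The 7 SMG1 copies measured 0.135 to 4.64 CPM, against 130 to 188 CPM for SMG1, and held 4.91% to 7.56% of the reads of SMG1 and its copies together, least in the parental indisulam libraries (6% and 4.91%). SMG1P3 rose by 0.37 (SE 0.118, adjusted p = 0.0092) and SMG1P7 fell by 0.52 (SE 0.0885, adjusted p = 2.2e-05) in parental cells, and in resistant cells 0 of the 9 tested copies were called (0 by edgeR, adjusted or unadjusted, and 0 by DESeq2). The count in parental cells was 1 without parental indisulam replicate 1, and without resistant indisulam replicate 2 it was 1 in resistant cells. The UPF3A copies had at most 14 reads in a library. With the reads of copies added to their gene, the parental log2 fold change was 0.33 for SMG1 (adjusted p = 0.036) and -0.17 for UPF3A (adjusted p = 0.00028). SMG6 overlaps 2 protein-coding genes of the opposite strand, HIC1 and SRR, and the non-coding genes opposite to it had 0 reads. Over the 8 libraries SMG6 had 17958 reads, HIC1 310 and SRR, whose exons do not overlap those of SMG6, 2027. How the counting used strand is not given in the sources used here. SMG8 overlaps a protein-coding gene without a symbol on its own strand over 5827 bases, with 422 bases of shared exon. That gene had 0 reads, and whether SMG8 reads there were left out as ambiguous was not tested.

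The response to the drug moved with the base composition of transcripts in parental cells. Over 4 classes of increasing GC content, the median log2 fold change of all tested genes went from 0.12 to 0.08, -0.01 and -0.13 in parental cells, and was 0.00, -0.01, 0.00 and 0.06 in resistant cells. For the interaction the medians were -0.10, -0.05, 0.02 and 0.20, and between the lines on the drug -0.14, -0.07, 0.05 and 0.23. The class limits were 42.0%, 48.5% and 56.4% GC. UPF2 (41.2%), UPF3B (41.3%), SMG1 (43.1%) and SMG8 (47.4%) lay in the lower classes, SMG9 (55.2%) and SMG6 (55.3%) in the third, and SMG5 (57.6%) and UPF1 (60.4%) in the highest. Each of the 6 factors that rose lay above the median of its class, and UPF3A (48.3%), at -0.17, lay below its class median of 0.08. Once corrected for GC content and length, 6 factors still rose and UPF3A still fell, with SMG8 at 0.27, UPF3B at 0.21, UPF2 at 0.10, SMG5 at 0.31, SMG1 at 0.25 (adjusted p = 0.011) and UPF1 at 0.22, and the SMG9 call was lost (-0.04, adjusted p = 0.26). In resistant cells the 4 calls held, and UPF3A became called higher (0.10, adjusted p = 0.016) and UPF1 lower (-0.06, adjusted p = 0.026). The interaction stayed negative and called for SMG8 (-0.35), UPF2 (-0.22), SMG5 (-0.36), UPF3B (-0.13), SMG6 (-0.17) and UPF1 (-0.28), became called for SMG1 (-0.37, adjusted p = 0.011) and stayed positive for UPF3A (0.30).

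**Figure D4:**
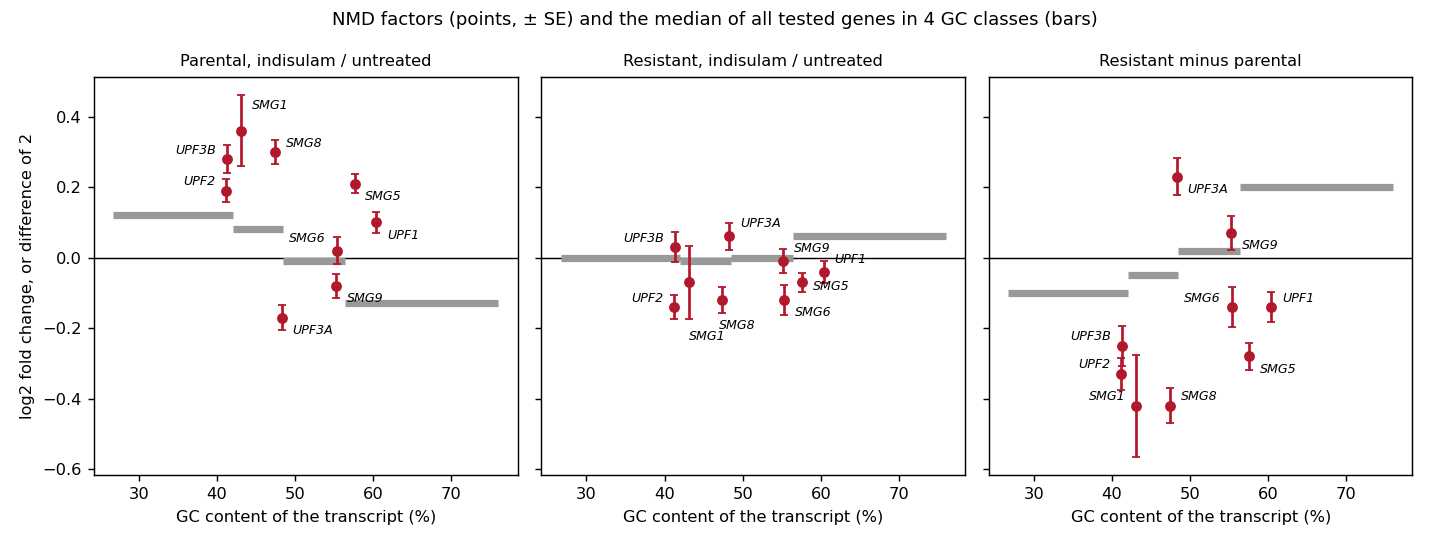
Log2 fold change, or difference of responses (y axis), against the GC content of the canonical transcript (x axis, %) for the 9 NMD factors (points, ± SE). Grey bars are medians of all tested genes in 4 GC classes, which fell from 0.12 to -0.13 with GC content in parental cells stayed between -0.01 and 0.06 in resistant cells, and went from -0.10 to 0.20 for the difference.

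Other library measures moved with the groups as well. The mitochondrial share of reads in parental libraries was 4.19% and 4.33% off the drug and 2.61% and 2.24% on it, and in resistant libraries 3% and 3.45% off the drug and 3.84% and 3.52% on it. The part of these shares in the results was not tested. The share of assignable reads that lay outside genes was 6.22% and 6.34%, 4.82% and 4.94%, 4.72% and 5.41%, and 6.16% and 6.21% in the same order. When mitochondrial genes and the 10 genes with most reads were left out, the number of factors called did not change in any comparison. The RBM39 message, whose protein is the drug target, measured 332 and 337 CPM untreated and 716 and 731 CPM treated in parental cells, and 299 and 311 CPM off and 577 and 591 CPM on the drug in resistant cells. Its log2 fold changes were 1.11 (SE 0.0287) and 0.94 (SE 0.0289). Both treated groups thus stood apart from their controls in the same direction at this gene.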

How the data were processed

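RNA of Panc10.05 cells was sequenced in 8 stranded poly(A)-selected libraries. The authors deposited raw counts of reads per gene, 1 table per library, after trimming with SeqPurge and alignment to GRCh38 with HISAT2 2.2.1, and per the labels Picard and HTSeq also belonged to the processing. Duplicate, ambiguous and poorly mapped reads were excluded by the authors. The annotation release and strand setting of the counting are not given in the sources used here. Ambiguity removal lowers counts where genes or copies overlap.

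Here the counts were tested with edgeR 4.0.16 in R 4.3.3, using the quasi-likelihood test with robust dispersion, TMM scaling and filterByExpr, with 4 group means over 8 libraries and 4 residual degrees of freedom. A gene was called at a Benjamini-Hochberg adjusted p under 0.05 over all tested genes. The 9 rows that name no gene, such as unmapped, duplicate and ambiguous reads, held 37.9% to 44.9% of all reads and were left out. An exact permutation test of 2 against 2 libraries cannot give a p below 0.333. Each library was entered as 1 sample, although the study calls them technical replicates. Replicates differed beyond sampling noise, which does not make them independent samples.

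The 9 factors and all gene lists were chosen with earlier results of these data known. Genes that are not reported here were left out of the lists. Named were all 9 factors, RBM39, the tested copies, for each list the 3 called genes that rose most and the 3 that fell most (mean of at least 1 CPM) in each drug comparison, and the gene most like each factor. Other genes of the exon junction complex list were named after their values were seen. Alternatives were DESeq2 1.42.0 (scaling and Wald test), library totals, other filters, a replicate block, only the groups compared, a minimum effect, removal of abundant genes and of each library. Adding the reads of copies and a robust correction for GC content and length (a value for 99.6% of tested genes) were chosen after seeing the data. The fit was tested on simulated data.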

Additional observations from a re-analysis of the deposited data

Results flagged for a closer look

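The responses of the lines to indisulam differed for the following genes by the interaction term (resistant minus parental, log2 scale). Among the NMD factors these were SMG8 (-0.42), UPF2 (-0.33), SMG5 (-0.28), UPF3B (-0.25), SMG6 (-0.14), UPF1 (-0.14) and UPF3A (0.23). Among the exon junction complex genes they included MAGOH (-0.33) and EIF4A3 (-0.19). Among other NMD factors they were RUVBL1 (-0.48), NBAS (-0.38), PNRC2 (-0.23) and DHX34 (0.17). Among termination and cap-binding genes they were NCBP2 (-0.45), ETF1 (-0.21), PABPC1 (-0.19), GSPT1 (-0.16), NCBP1 (-0.12) and EIF4G1 (0.12). Decay enzymes with a called difference included XRN2 (-0.48), DCP1A (-0.42), CNOT7 (-0.29), PARN (-0.23), DIS3 (-0.22) and EDC4 (0.35). Known NMD targets included HNRNPL (-0.39), TBL2 (-0.33), SRSF3 (-0.31), RPL12 (-0.28), RPL3 (-0.27), GADD45B (0.32), DDIT3 (0.50), SNHG12 (0.81) and ATF3 (0.97). The copy SMG1P7 differed by 0.56 and RBM39 by -0.18. Of all tested genes, 50.1% differed by this test.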

How the results depend on the processing

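Over 54 values of the 9 factors, of which 40 were called, 1017 alternative values were computed. Direction and call were kept in 840, the call was lost in 126 (90 without the minimum effect), gained in 15, and the direction turned in 36, 2 of them for a called value (SMG5 on the drug). The cause of these changes was not tested, except that adding the reads of copies leaves no copies to call. With the minimum effect of 0.25, the factors called were 0 in each drug comparison, 0 between untreated lines and for resistant indisulam against parental untreated, 3 on the drug and 1 for the interaction. For parental, resistant and interaction in turn, the lists then gave 0, 0 and 0 (exon junction complex), 1, 0 and 2 (other NMD factors), 2, 1 and 1 (termination and cap binding), 2, 1 and 3 (decay enzymes), 6, 4 and 4 (known targets), and 1 copy in parental cells. In resistant cells, 2 factors were called with library totals and 2 with a mean of at least 1 CPM. Termination and cap-binding calls were 3 for the interaction with library totals and 3 with the GC and length correction, and 3 in resistant cells with only the groups compared. DESeq2 called 1 copy in parental cells, and with the copies added 0 were left there and 0 for the interaction.

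Leaving out 1 library gave 5 to 8 factors in parental and 2 to 3 in resistant cells, 3 to 5 termination genes in resistant cells, and 1 to 3, 0 to 1 and 1 to 2 copies in parental cells, resistant cells and the interaction. Directions turned as follows. On the drug, SMG5 was 0.019 with library totals and 0.010 with the CPM minimum, and UPF3A 0.067 and 0.058, 0.005 without a filter, 0.019 with the GC correction and -0.022 to 0.006 without 1 library. In parental cells SMG6 was -0.044 with totals, -0.034 with the CPM minimum, -0.008 without a filter and -0.035 to 0.039 without 1 library. In resistant cells SMG9 was 0.034 with totals, 0.014 with the CPM minimum, 0.007 with the GC correction and -0.074 to 0.041 without 1 library. UPF1 was 0.007 there with totals, and without 1 library UPF3B ranged from -0.017 to 0.071 and SMG1 from -0.163 to 0.013. Between untreated lines SMG8 was -0.016 with totals, -0.020 with the GC correction and -0.013 to 0.036 without 1 library, UPF2 0.010 with either DESeq2 setting and -0.021 to 0.015, and UPF1 -0.062 to 0.001. SMG1 in resistant indisulam against parental untreated ranged from -0.079 to 0.097.

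Over all tested genes, the deviations of same-numbered libraries correlated at -0.14 to 0.10 over 6 pairs of groups. Pairing at single genes was not tested. SMG1 was higher in replicate 2 than in replicate 1 in every group, by 0.05 to 0.23 on the log2 scale. With the replicate block, the SMG9 call in parental cells was lost (-0.082, adjusted p = 0.056), and SMG1 was called between untreated lines (0.099, adjusted p = 0.048) and for the interaction (-0.426, adjusted p = 4e-05).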
